A study of Mus musculus with 19 samples.

Results

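Glucocorticoid response genes were followed in regulatory T cells (Tregs) 7 days after a burn. The set was 8 genes, the glucocorticoid receptor gene and 7 genes that the hormone is known to induce, and it was taken by symbol from the 24982 rows of the count table, which lists the genes in capitals as TSC22D3, DDIT4, FKBP5, NR3C1, SGK1, KLF9, ZBTB16 and PER1. Of the 8 genes, 7 passed the filter on low counts, among 11464 genes of the whole table that passed. *Zbtb16* did not pass and is given as counts. No hormone was measured in these samples, so the values are a readout of the genes alone.

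The data were bulk RNA-seq counts of CD4+FoxP3-GFP+ cells sorted into CD44high and CD44low fractions from the axillary, brachial and inguinal lymph nodes that drain the injury. All mice were Foxp3DTR mice, which carry the diphtheria toxin receptor and GFP under the Foxp3 locus, and the study used mice of 8 to 16 weeks of age. Injured mice had 20% of the body surface immersed in water at 90 °C for 9 seconds, while uninjured (sham) mice were put through the same steps with water at room temperature. Anaesthesia with ketamine and xylazine, buprenorphine and saline with atipamezole were common to both arms. There were 4 libraries of CD44high Tregs from uninjured mice, 4 of CD44high Tregs from injured mice, 5 of CD44low Tregs from uninjured mice and 6 of CD44low Tregs from injured mice, each made from 50000 cells. The labels do not say whether a library came from 1 mouse or from pooled mice, so the p-values below measure the spread between these libraries. In bulk RNA, fewer cells that express a gene and less of its RNA per cell cannot be told apart.

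Library totals lay between 5582234 and 9433610 counts, and 12622 to 13860 genes had a count. Depth differed with injury in CD44high Tregs, at a median of 6066126 counts in uninjured and 8496590 in injured libraries, with overlap. In CD44low Tregs the medians were 6323127 and 6663687 counts. Genes of the sort followed the labels, with *Cd44* at 369 to 626 CPM (counts scaled to the library total) in CD44high and 102 to 156 CPM in CD44low libraries. Within CD44high Tregs *Cd44* stood at 541 to 626 CPM in uninjured and 369 to 497 CPM in injured libraries without overlap. The log2 fold change of -0.45 did not pass the threshold (adjusted p under 0.05). The part of *Cd44* in the injury values of that subset was not tested. *Foxp3* was present in all 19, at 47.7 to 181 CPM. Of the 6 libraries of injured CD44low Tregs, 3 carry a single number (1, 2 and 5) and 3 carry a second number (1_2, 4_2 and 5_2), which the labels do not explain. They also do not say whether 1 and 1_2, or 5 and 5_2, came from the same mice or sample. If they did, the p-values for injured CD44low Tregs treat as separate libraries that are not independent. Libraries 1, 2 and 5 stood apart from libraries 1_2, 4_2 and 5_2 in some immediate-early genes, not all in the same direction. Such genes are transcribed within minutes of many stimuli. *Fos* lay between 13.5 and 16.4 CPM in libraries 1, 2 and 5, between 138 and 232 CPM in libraries 1_2, 4_2 and 5_2, and between 165 and 316 CPM in uninjured CD44low Tregs. *Jun* and *Junb* were likewise lower in libraries 1, 2 and 5 than in libraries 1_2, 4_2 and 5_2. In the same order *Egr1* (232 to 276 and 167 to 213 CPM) and *Egr2* (87.7 to 106 and 46.0 to 55.7 CPM) were higher. *Ier2*, *Nr4a1* and *Dusp2* overlapped. Values for injured CD44low Tregs are therefore given for both sets. Marker genes of neutrophils also moved with injury: the summed level of 5 genes was 0 to 0.500 CPM in uninjured and 2.79 to 19.3 CPM in injured CD44high Tregs, and 0 to 1.69 CPM in uninjured and 0 to 30.1 CPM in injured CD44low Tregs. *Ly6g* and *Mpo* had no count in any group but injured CD44high Tregs, and *Cxcr2* had none in uninjured CD44low Tregs. The 9 genes of macrophages and dendritic cells summed to 82.1 to 159 and 104 to 253 CPM in uninjured and injured CD44high Tregs, and to 21.3 to 41.0 and 35.7 to 159 CPM in uninjured and injured CD44low Tregs. None of these 9 was without a count in any group. The 9 stroma genes summed to 59.3 to 74.3 CPM in uninjured and 78.5 to 115 CPM in injured CD44high Tregs. Most of this was *Pecam1*, at a mean of 60.8 and 97.9 CPM. In CD44low Tregs the stroma sums overlapped. Of 7 Treg marker genes 2 were higher and 0 lower after injury in CD44low Tregs, beside 4.24% and 3.36% of all genes tested, and 0 passed in CD44high Tregs.

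Glucocorticoids (corticosterone in mice) enter the cell and bind the glucocorticoid receptor, a product of *Nr3c1* that is held ready in the cytosol by HSP90 and its partner proteins. The bound receptor moves to the nucleus, raises transcription of genes such as *Tsc22d3* and *Fkbp5*, and lowers that of many cytokine genes. The hormone is released in stress and with the rhythm of day and night, and in T cells it restrains activation. None of these genes answers to the hormone alone, since *Ddit4* also responds to low oxygen and nutrient stress, *Per1* to the circadian clock, and *Tsc22d3* and *Klf9* to further signals.

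Promoter windows show what the genes carry next to their start sites. RefSeq (GRCm38.p6) windows from 250 bases before to 50 bases after an annotated start were found for 6 of the 8 genes, 14 windows in all, while *Nr3c1* and *Zbtb16* had none in the table used. Each window was searched on both strands for the palindromic glucocorticoid response element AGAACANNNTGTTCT, for its single arm AGAACA, for the E-box CACGTG of clock and MYC-family proteins, for the cAMP response element TGACGTCA and for the FOXO site GTAAACA. The palindrome was present in 3 of 32851 windows of all genes (0.00913%), and 1 of these 3 was a window of *Sgk1*. It began 189 bases before the start at chr10:21993640-21993939 (plus strand). The single arm, which also lies inside the palindrome, occurred in 6233 of all windows and in 4 of the 14, namely in 3 of *Sgk1* and in 1 of *Tsc22d3* at chrX:140600473-140600772 (minus strand), 185 bases before the start. The E-box occurred in 7.15% of all windows and in windows of *Sgk1*, of *Fkbp5* at chr17:28486100-28486399 (minus strand) and of *Per1* at chr11:69098699-69098998 (plus strand). The FOXO site occurred in 3.65% of all windows and in that of *Klf9* at chr19:23140976-23141275 (plus strand). The cAMP response element occurred in 1.79% of all windows and in none of the 14. The only window of *Ddit4*, at chr10:59951721-59952020 (minus strand), held none of these letters. The windows are shown 5′ to 3′ on the strand of the gene because they hold these matches, which are in capitals, and that of *Ddit4* is shown as the gene that changed most without one. Of *Sgk1* only the window with the palindrome is shown. Its windows at chr10:21881934-21882233 and chr10:21991973-21992272, each with a single arm, are not shown. In the *Sgk1* window shown, the E-box and a single arm overlap at the left end.
Sgk1: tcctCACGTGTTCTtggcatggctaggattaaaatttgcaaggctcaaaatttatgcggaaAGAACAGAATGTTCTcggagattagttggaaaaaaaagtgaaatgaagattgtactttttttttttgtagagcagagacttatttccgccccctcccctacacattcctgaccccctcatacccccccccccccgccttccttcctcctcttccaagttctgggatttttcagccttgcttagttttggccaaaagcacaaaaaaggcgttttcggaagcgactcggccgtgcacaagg
Tsc22d3: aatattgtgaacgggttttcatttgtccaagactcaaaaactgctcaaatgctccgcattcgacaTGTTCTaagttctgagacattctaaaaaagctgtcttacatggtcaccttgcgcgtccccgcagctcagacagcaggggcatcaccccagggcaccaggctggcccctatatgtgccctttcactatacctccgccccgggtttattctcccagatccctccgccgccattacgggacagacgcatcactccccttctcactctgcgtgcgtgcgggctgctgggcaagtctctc
Fkbp5: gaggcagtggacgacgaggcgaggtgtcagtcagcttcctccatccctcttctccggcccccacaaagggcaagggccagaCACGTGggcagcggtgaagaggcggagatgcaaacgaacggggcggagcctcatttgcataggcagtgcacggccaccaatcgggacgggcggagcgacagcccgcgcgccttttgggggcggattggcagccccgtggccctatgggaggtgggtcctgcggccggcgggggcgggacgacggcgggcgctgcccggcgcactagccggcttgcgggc
Per1: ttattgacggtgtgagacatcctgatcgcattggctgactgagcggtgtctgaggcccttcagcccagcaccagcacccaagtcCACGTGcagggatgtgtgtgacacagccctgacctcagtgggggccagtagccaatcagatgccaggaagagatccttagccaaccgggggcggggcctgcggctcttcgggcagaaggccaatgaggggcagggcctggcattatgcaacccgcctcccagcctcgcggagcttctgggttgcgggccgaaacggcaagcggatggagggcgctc
Klf9: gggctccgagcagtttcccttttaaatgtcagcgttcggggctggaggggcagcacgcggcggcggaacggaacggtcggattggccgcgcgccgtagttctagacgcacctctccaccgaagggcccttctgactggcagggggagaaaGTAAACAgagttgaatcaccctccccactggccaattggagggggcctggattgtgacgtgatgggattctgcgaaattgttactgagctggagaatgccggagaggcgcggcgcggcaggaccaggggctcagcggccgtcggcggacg
Ddit4: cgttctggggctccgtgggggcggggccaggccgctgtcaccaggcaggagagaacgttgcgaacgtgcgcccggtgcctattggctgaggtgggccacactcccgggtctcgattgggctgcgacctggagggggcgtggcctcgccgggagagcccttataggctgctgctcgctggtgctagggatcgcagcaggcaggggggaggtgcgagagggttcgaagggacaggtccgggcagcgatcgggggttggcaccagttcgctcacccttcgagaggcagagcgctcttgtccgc

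The question of each injury comparison was which of the genes differed between injured and uninjured mice within a subset. *Tsc22d3* and *Ddit4* were higher after injury in both subsets, and the other 5 genes tested passed the threshold (adjusted p under 0.05) in neither. In CD44high Tregs 2 of 7 genes were higher and 0 lower, where 1.06% of all genes tested were higher and 1.33% lower. In CD44low Tregs 2 of 7 were again higher and 0 lower, where 4.24% of all genes tested were higher and 3.36% lower. The median log2 fold change of the 7 genes was -0.07 in CD44high and 0.60 in CD44low Tregs, beside -0.02 and 0.01 over all genes tested. The groups and the number of libraries in each are shown in the plot of CPM by library.

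**Figure D1:**
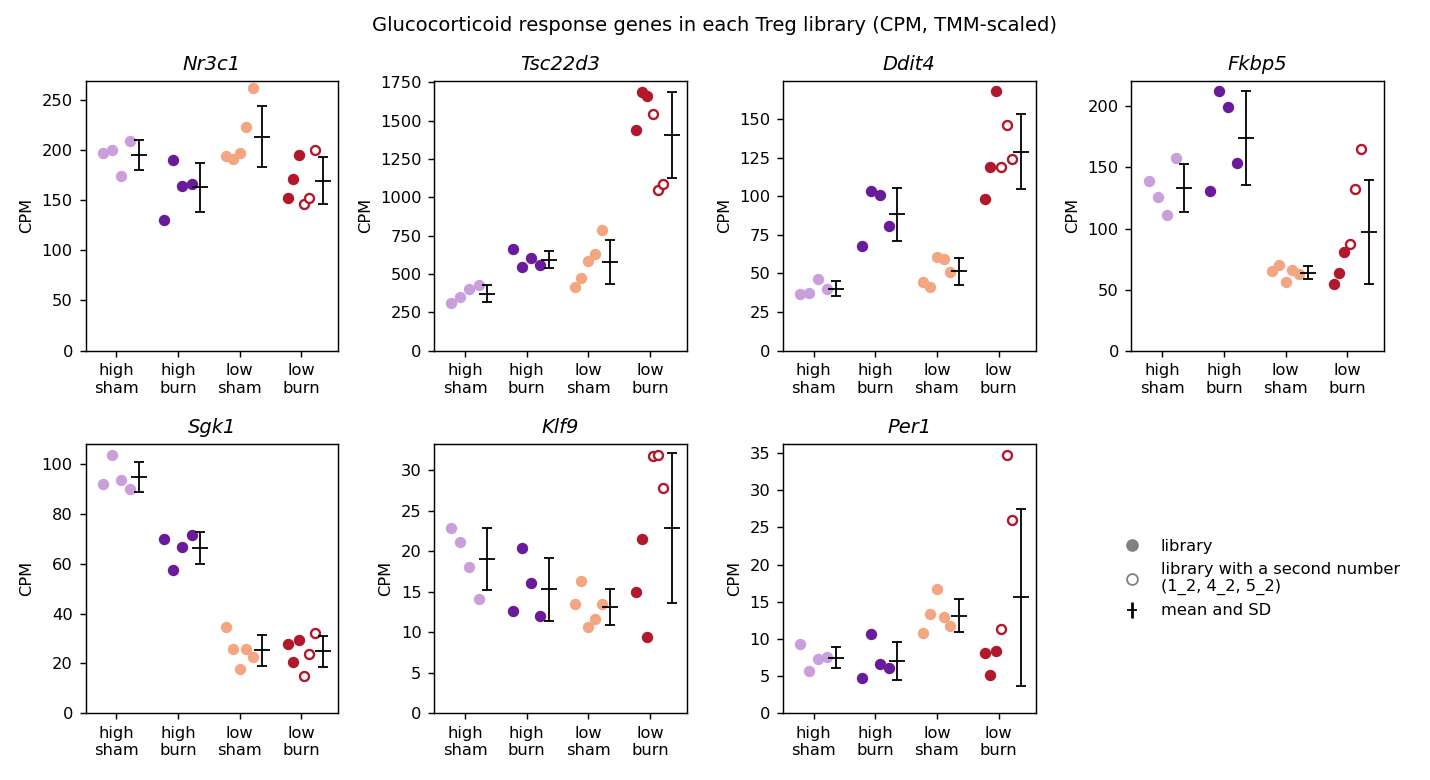
CPM of the 7 genes tested in each library (y axis from 0) by group (x axis: CD44high or CD44low, sham or burn), with the mean and SD beside each group and open symbols for libraries 1_2, 4_2 and 5_2. *Tsc22d3* and *Ddit4* lie above the uninjured libraries in all injured libraries of the same subset, and *Sgk1* separates the subsets.

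*Nr3c1* encodes the receptor through which the other genes are induced. In uninjured CD44high Tregs it stood at 197, 200, 174 and 208 CPM, and in injured ones at 130, 190, 164 and 166 CPM. In uninjured CD44low Tregs it stood at 194, 191, 197, 222 and 262 CPM, and in the injured ones at 152, 171 and 195 CPM in libraries 1, 2 and 5 and 146, 152 and 199 CPM in libraries 1_2, 4_2 and 5_2. The injured libraries reached down to lower values in both subsets, but the groups overlapped. The log2 fold change after injury was -0.26 (SE 0.131, adjusted p = 0.351) in CD44high and -0.33 (SE 0.112, adjusted p = 0.0641) in CD44low Tregs, with 95% intervals of -0.53 to 0.01 and -0.56 to -0.10. In CD44low Tregs the call changed without injured library 5_2 (-0.36, adjusted p = 0.0294). The subsets differed by -0.13 (SE 0.124, adjusted p = 0.411) in uninjured and -0.06 (SE 0.120, adjusted p = 0.743) in injured mice on the log2 scale, and *Nr3c1* had the narrowest spread of the 7 genes over the 19 libraries (SD 0.24 of log2 CPM).

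*Tsc22d3* encodes GILZ, a leucine zipper protein that binds NF-κB and AP-1 and is among the genes the hormone induces most strongly in T cells. It stood at 310, 348, 402 and 432 CPM in uninjured CD44high Tregs and at 665, 544, 604 and 556 CPM in injured ones. In CD44low Tregs it stood at 418, 472, 583, 630 and 784 CPM without injury, and after injury at 1437, 1685 and 1659 CPM in libraries 1, 2 and 5 and at 1543, 1046 and 1087 CPM in libraries 1_2, 4_2 and 5_2. No injured library overlapped with the uninjured ones of its subset. It was 1.59-fold higher after injury in CD44high (95% interval 1.24 to 2.03, log2 fold change 0.67, SE 0.172, adjusted p = 0.0369) and 2.44-fold higher in CD44low Tregs (1.97 to 3.03, log2 fold change 1.29, SE 0.150, adjusted p = 2.61e-05), where it had the fifth smallest p of all genes tested.

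The rise of *Tsc22d3* in CD44low Tregs was present in each set of injured libraries, with a log2 fold change of 1.46 (adjusted p = 2.39e-06) for libraries 1, 2 and 5 and 1.11 (adjusted p = 0.000645) for libraries 1_2, 4_2 and 5_2. The 5 neutrophil genes summed to 0.149, 30.1 and 6.56 CPM in libraries 1, 2 and 5 and to 0, 2.16 and 3.601 CPM in libraries 1_2, 4_2 and 5_2. The 9 genes of macrophages and dendritic cells summed to 60.0, 80.6 and 159 CPM and to 35.7, 47.5 and 48.2 CPM in the same order, and their part in the rise was not tested. In CD44high Tregs the call was lost without any of the uninjured libraries 2, 3 or 4 (adjusted p = 0.121, 0.107 and 0.0614) or the injured libraries 2, 4 or 5 (0.101, 0.0756 and 0.0689), while the log2 fold change stayed between 0.60 and 0.75. Per kilobase of transcript it was the most abundant of the 7 genes in every group, at 85.9 ± 12.5 (SD, n = 4) RPKM in uninjured and 136 ± 12.7 (SD, n = 4) RPKM in injured CD44high Tregs, ranks 595 and 346 of 11350 genes. In CD44low Tregs its mean was 133 RPKM (rank 312) without and 325 RPKM (rank 94) with injury.

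The same gene was lower in CD44high than in CD44low Tregs, by -0.63 (SE 0.164, adjusted p = 0.00310) on the log2 scale in uninjured mice, where the groups overlapped, and by -1.25 (SE 0.162, adjusted p = 1.42e-06) in injured mice, where they did not. The effect of injury itself, CD44high minus CD44low, differed by -0.62 (SE 0.225, 95% interval -1.09 to -0.15), with a p of 0.0113 that became 0.260 after adjustment in edgeR's test. That difference passed with libraries 1, 2 and 5 as the injured CD44low group (-0.80, adjusted p = 0.0408) and not with 1_2, 4_2 and 5_2 (-0.43, adjusted p = 0.485).

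*Ddit4* encodes REDD1, an inhibitor of the growth kinase complex mTORC1. It stood at 36.6, 37.5, 46.7 and 40.2 CPM in uninjured and at 68.0, 103, 101 and 80.4 CPM in injured CD44high Tregs. In CD44low Tregs it stood at 44.6, 41.4, 60.3, 59.2 and 51.0 CPM without injury, at 98.1, 119 and 168 CPM in injured libraries 1, 2 and 5 and at 119, 146 and 124 CPM in libraries 1_2, 4_2 and 5_2. All injured libraries were above all uninjured ones of the same subset. The increase was 2.19-fold in CD44high (1.72 to 2.79, log2 fold change 1.13, SE 0.168, adjusted p = 0.000313) and 2.51-fold in CD44low Tregs (2.04 to 3.09, log2 fold change 1.33, SE 0.145, adjusted p = 1.28e-05), the third smallest p of all genes tested. In CD44low Tregs the log2 fold change was 1.32 with libraries 1, 2 and 5 and 1.36 with libraries 1_2, 4_2 and 5_2, and *Ddit4* remained past the threshold in both subsets under every alternative run.

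The effect of injury on *Ddit4* differed between subsets by -0.20 (SE 0.219, 95% interval -0.65 to 0.26, adjusted p = 0.815). Its level was lower in CD44high than in CD44low Tregs of injured mice (log2 fold change -0.55, SE 0.150, adjusted p = 0.00593), and in uninjured mice the difference of -0.35 (SE 0.161, adjusted p = 0.0783) did not pass with all libraries and passed without uninjured CD44low library 2 (-0.43, adjusted p = 0.0399) and with the compared groups alone (adjusted p = 0.0415). Mean *Ddit4* rose from rank 2668 to rank 1224 of 11350 genes by RPKM in CD44high Tregs and from rank 1959 to rank 733 in CD44low Tregs.

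**Figure D2:**
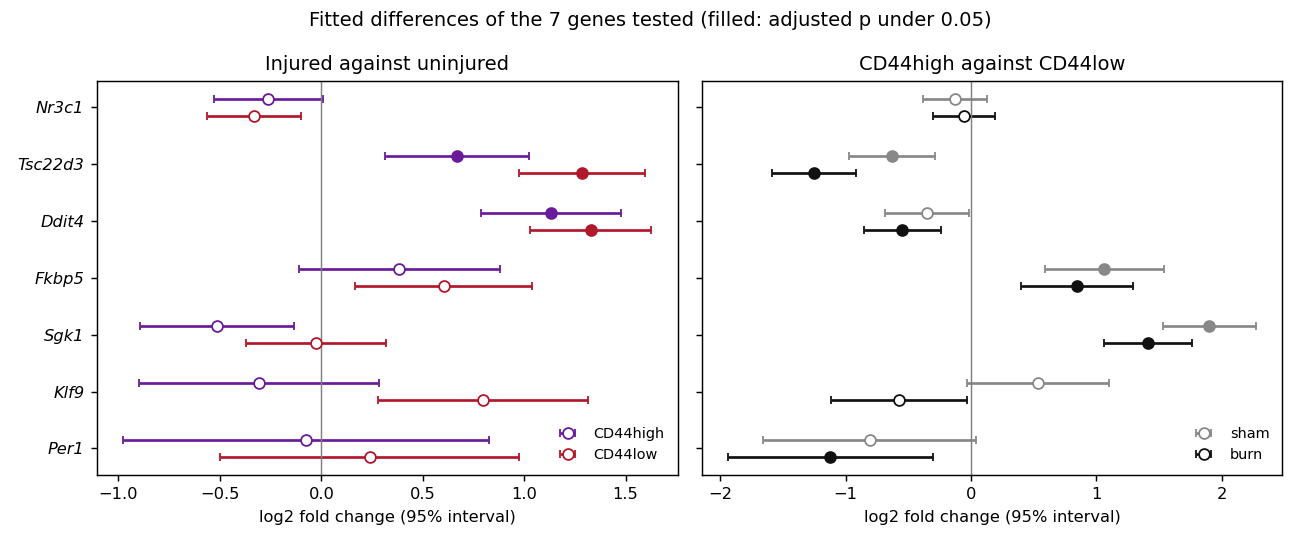
Log2 fold change with its 95% interval (x axis) for the 7 genes tested (y axis), injured against uninjured in each subset (left) and CD44high against CD44low without and with injury (right), with filled symbols where the adjusted p was under 0.05. The filled symbols on the left are *Tsc22d3* and *Ddit4*, and on the right *Sgk1* has the largest differences, 1.90 and 1.41.

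*Fkbp5* encodes FKBP51, an HSP90 partner that lowers the affinity of the receptor for the hormone, so that its induction is a feedback. In CD44high Tregs it stood at 139, 126, 111 and 157 CPM without and at 131, 213, 200 and 154 CPM with injury. In uninjured CD44low Tregs it stood at 65.2, 70.4, 55.9, 65.7 and 62.8 CPM. The injured CD44low libraries split, with 54.9, 63.5 and 81.0 CPM in libraries 1, 2 and 5, which overlapped the uninjured group, and 87.1, 133 and 165 CPM in libraries 1_2, 4_2 and 5_2, all above it. The log2 fold change after injury was 0.38 (SE 0.239, adjusted p = 0.482) in CD44high and 0.60 (SE 0.211, adjusted p = 0.0762) in CD44low Tregs, the latter made up of 0.06 (adjusted p = 0.848) with libraries 1, 2 and 5 and 1.03 (adjusted p = 0.00354) with the other 3. Without injured CD44low library 1 or 2 the adjusted p was 0.0327 or 0.0391, and by DESeq2 it was 0.0341. The effects in the subsets differed by -0.22 (SE 0.318, adjusted p = 0.872).

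Between subsets *Fkbp5* was 2.09-fold higher in CD44high Tregs of uninjured mice (1.501 to 2.90, adjusted p = 0.000613), with no overlap, and 1.79-fold higher in injured mice (1.32 to 2.44, adjusted p = 0.00349), with overlap. With only libraries 1_2, 4_2 and 5_2 as injured CD44low Tregs the second difference was 0.42 on the log2 scale and did not pass (adjusted p = 0.0875). *Tsc22d3* and *Fkbp5* thus lay on opposite sides between the subsets.

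*Sgk1* encodes a kinase that phosphorylates FOXO proteins and regulates ion channels, and in T cells it is also induced by salt and interleukins. It was the gene that separated the subsets most, with 91.8, 104, 93.4 and 89.8 CPM in uninjured CD44high Tregs against 34.7, 26.0, 17.9, 25.7 and 22.5 CPM in uninjured CD44low Tregs, without overlap. After injury it stood at 70.0, 57.3, 66.6 and 71.5 CPM in CD44high Tregs, and in CD44low Tregs at 27.7, 20.7 and 29.5 CPM in libraries 1, 2 and 5 and 14.997, 23.9 and 32.3 CPM in libraries 1_2, 4_2 and 5_2. It was 3.73-fold higher in CD44high than in CD44low Tregs without injury (2.88 to 4.83, adjusted p = 7.37e-09) and 2.67-fold higher with injury (2.09 to 3.40, adjusted p = 4.58e-07).

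After injury *Sgk1* was called in neither subset. In CD44high Tregs all injured libraries lay below all uninjured ones, but the log2 fold change of -0.51 (SE 0.184, adjusted p = 0.159) did not pass in the fit of 4 groups, and it passed when the CD44high libraries were fitted alone (adjusted p = 0.0215). In CD44low Tregs the log2 fold change was -0.03 (95% interval -0.37 to 0.32, adjusted p = 0.943). The difference between these effects was -0.49 (SE 0.249, adjusted p = 0.492).

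*Klf9* encodes a Krüppel-like transcription factor that is a direct target of the receptor in many tissues. It stood at 22.8, 21.2, 18.0 and 14.1 CPM in uninjured and at 12.6, 20.4, 16.1 and 12.1 CPM in injured CD44high Tregs, which overlapped. In CD44low Tregs it stood at 13.4, 16.4, 10.6, 11.6 and 13.5 CPM without injury, at 15.03, 21.5 and 9.41 CPM in injured libraries 1, 2 and 5 and at 31.7, 31.8 and 27.8 CPM in libraries 1_2, 4_2 and 5_2. All 3 libraries with a second number and library 2 lay above the uninjured group. The log2 fold change was -0.31 (SE 0.287, adjusted p = 0.674) in CD44high and 0.80 (SE 0.251, adjusted p = 0.0521) in CD44low Tregs, and in the latter it was 0.23 (adjusted p = 0.572) with libraries 1, 2 and 5 and 1.24 (adjusted p = 0.00262) with libraries 1_2, 4_2 and 5_2. It passed in 8 of 20 alternatives, among them those without injured CD44low library 1, 5 or 5_2 (adjusted p = 0.0389, 0.00906 and 0.0481) and DESeq2 (0.0203). The effects in the subsets differed by -1.11 (SE 0.380, 95% interval -1.89 to -0.32), with a p of 0.00789 and an adjusted p of 0.222, and this difference passed with libraries 1_2, 4_2 and 5_2 alone (-1.53, adjusted p = 0.00810). CD44high minus CD44low was 0.53 (SE 0.275, adjusted p = 0.118; 0.0399 with the compared groups alone) in uninjured and -0.57 (SE 0.263, adjusted p = 0.0906) in injured mice, and the latter passed with libraries 1_2, 4_2 and 5_2 alone (-1.01, adjusted p = 0.000888) and without injured CD44high library 3 or injured CD44low library 1 or 5 (adjusted p = 0.0482, 0.0430 and 0.0108).

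*Per1* encodes a repressor of the circadian clock that the hormone induces directly. It was low in every group, at 9.27, 5.77, 7.34 and 7.62 CPM in uninjured and 4.78, 10.7, 6.68 and 6.16 CPM in injured CD44high Tregs, and at 10.8, 13.4, 16.8, 12.9 and 11.8 CPM in uninjured CD44low Tregs. The injured CD44low libraries lay on both sides of the uninjured ones, with 8.18, 5.11 and 8.42 CPM in libraries 1, 2 and 5, all below, and 11.4, 34.7 and 26.0 CPM in libraries 1_2, 4_2 and 5_2. The log2 fold change over all 6 was 0.24 (SE 0.356, adjusted p = 0.711), while it was -0.86 (adjusted p = 0.0378) with libraries 1, 2 and 5 and 0.89 (adjusted p = 0.0860) with libraries 1_2, 4_2 and 5_2. The direction in injured CD44low Tregs therefore rested on which libraries were used. In CD44high Tregs it was -0.07 (SE 0.436, adjusted p = 0.958), and the difference between the subsets was -0.31 (SE 0.563, adjusted p = 0.899).

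*Per1* was lower in CD44high than in CD44low Tregs of injured mice (log2 fold change -1.12, SE 0.395, adjusted p = 0.0282), with overlap, and this call was absent with libraries 1, 2 and 5 as the CD44low group (-0.02, adjusted p = 0.970). It was also lost without injured CD44high library 2, 4 or 5 (adjusted p = 0.0798, 0.0654 and 0.0746) or injured CD44low library 4_2 or 5_2 (0.1001 and 0.0692), and with the compared groups alone (0.0817). In uninjured mice the ranges did not overlap, but the difference of -0.81 (SE 0.412, adjusted p = 0.113) did not pass, except with the compared groups alone (adjusted p = 0.00838).

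*Zbtb16* encodes PLZF, a transcription factor of NKT and other innate-like T cells that the hormone also induces in several tissues. It had 8 counts in the 4 uninjured CD44high libraries (0, 6, 1 and 1), 0 in the 4 injured ones, 0 in the 5 uninjured CD44low libraries and 1 in the 6 injured ones, in library 2. A count of 0 allows up to 3 counts, which is 0.0885 CPM over the injured CD44high libraries and 0.0918 CPM over the uninjured CD44low libraries, with counting error only. No fold is given, since 6 of the 8 counts of uninjured CD44high Tregs were in 1 library.

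The split of the injured CD44low libraries did not touch all genes alike. *Tsc22d3* and *Ddit4* were above the uninjured range in all 6 libraries, *Fkbp5* and *Klf9* in all 3 libraries with a second number and in 1 of the other 3, and *Nr3c1* and *Sgk1* in none. *Per1* was above the uninjured range in 2 of the 3 libraries with a second number and below it in the other set. With libraries 1_2, 4_2 and 5_2 alone, 4 of 7 genes passed as higher and 0 as lower, beside 2.62% and 1.23% of all genes in that fit. With libraries 1, 2 and 5 alone 2 passed as higher and 1 as lower, beside 7.4% and 7.67% of all genes. What sets these libraries apart cannot be read from the labels, and the part of *Fos* and the other early genes in these values was not tested.

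**Figure D3:**
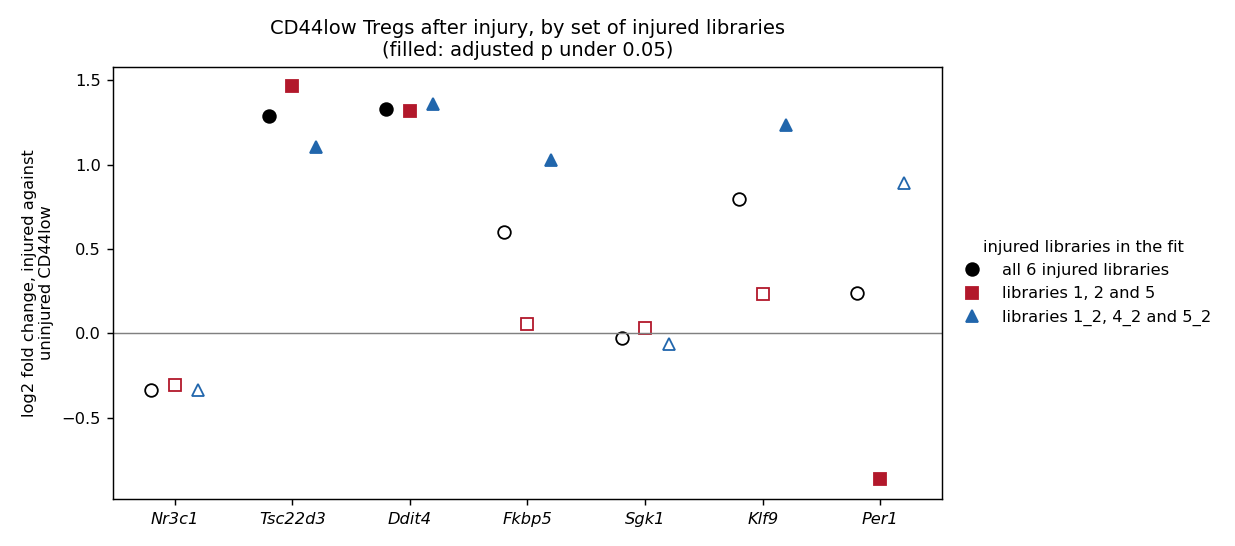
Log2 fold change of injured against uninjured CD44low Tregs (y axis) for the 7 genes tested (x axis), fitted with all 6 injured libraries, with libraries 1, 2 and 5, or with libraries 1_2, 4_2 and 5_2, and filled where the adjusted p was under 0.05. *Tsc22d3* and *Ddit4* are filled in all 3 fits, while *Per1* lies at -0.86 and 0.89 in the fits of the separate sets.

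Across the subsets the question was whether CD44high and CD44low Tregs differed in these genes apart from injury. Without injury *Sgk1* and *Fkbp5* were higher and *Tsc22d3* was lower in CD44high Tregs, that is 2 of 7 higher and 1 lower, where 24.7% of all genes tested were higher and 21.3% lower. With injury 2 of 7 were higher and 3 lower (*Tsc22d3*, *Ddit4* and *Per1*), where 20.1% of all genes tested were higher and 17.2% lower. The median log2 fold change of the 7 genes was -0.13 without and -0.55 with injury, beside 0.01 and -0.00 over all genes. The interaction of subset and injury was called for 0 of 7 genes by edgeR and by DESeq2, although *Klf9* and *Tsc22d3* had an unadjusted p under 0.05, while 0.192% of all genes tested passed as higher and 0.454% as lower.

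The machinery that readies the receptor was read from 18 tested genes of 20 listed. For this list and those below, 1.06% of all genes were higher and 1.33% lower after injury in CD44high Tregs. In CD44low Tregs these shares were 4.24% and 3.36%. In CD44high Tregs 0 of 18 passed after injury in edgeR's test (4 at an unadjusted p under 0.05, and 4 higher by DESeq2, beside 1.7% of all genes higher and 2.46% lower by DESeq2; median log2 fold change 0.06), and in CD44low Tregs 3 were higher and 0 lower (median -0.01). The 3 were parts of the HSP90 machine: *Stip1*, a co-chaperone that hands proteins to HSP90 (0.90, adjusted p = 0.00462), *Hsp90ab1*, the HSP90 beta chaperone (0.75, adjusted p = 0.00719), and *Fkbp4*, the counterpart of FKBP51 that favours transport of the receptor (0.62, adjusted p = 0.0113). Their log2 fold changes in CD44high Tregs were 0.75 (adjusted p = 0.0522), 0.68 (adjusted p = 0.0503) and 0.58 (adjusted p = 0.0670). *Hsp90ab1* stood at 1041 to 1296 CPM in uninjured CD44low Tregs, 2229 to 2635 CPM in injured libraries 1, 2 and 5 and 1191 to 1732 CPM in libraries 1_2, 4_2 and 5_2. With the latter alone 0 of 18 passed (4 at an unadjusted p under 0.05), and with libraries 1, 2 and 5 alone 5 were higher and 5 lower, in fits where the shares of all genes called also differed (2.62% higher and 1.23% lower against 7.4% and 7.67%).

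Further genes that the hormone induces in other settings, 27 tested of 29 listed, passed in both directions. In CD44high Tregs 1 was higher and 4 lower (median -0.15), beside 1.06% and 1.33% of all genes. In CD44low Tregs 5 were higher and 2 lower (median -0.17), beside 4.24% and 3.36% of all genes. *Pik3ip1*, an inhibitor of PI3 kinase, was higher in both subsets (0.57, adjusted p = 0.0123 in CD44high and 1.08, adjusted p = 4.82e-06 in CD44low Tregs). *Il7r*, the interleukin 7 receptor that glucocorticoid is known to raise in T cells, was higher in CD44low Tregs (1.28, adjusted p = 1.72e-05), at 242 to 284 CPM in libraries 1, 2 and 5 and 325 to 438 CPM in libraries 1_2, 4_2 and 5_2 against 101 to 156 CPM in uninjured ones. *Sesn1*, a stress-responsive brake on mTORC1, was higher in CD44low Tregs as well (0.61, adjusted p = 0.00591), but not with libraries 1_2, 4_2 and 5_2 alone (0.38, adjusted p = 0.0909).

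Other induced genes fell after injury. In CD44high Tregs these were *Irs2*, an adaptor of insulin signalling (-2.39, adjusted p = 0.000898), *Dusp1*, a phosphatase that switches off MAP kinases (-1.54, adjusted p = 0.00191), *Anxa1*, an anti-inflammatory annexin (-1.43, adjusted p = 0.00384), and *Zfp36*, which destabilises cytokine mRNA (-1.15, adjusted p = 0.000137). *Irs2* also fell in CD44low Tregs (-1.69, adjusted p = 0.00299), from 226 to 403 CPM without injury to 35.6 to 54.9 CPM in libraries 1, 2 and 5 and 109 to 201 CPM in libraries 1_2, 4_2 and 5_2. The remaining calls in CD44low Tregs, named after their values were seen, were *Nfkbia* (0.45) and *Il1r2* (0.61) as higher and *Btg2* (-0.44) as lower. With libraries 1, 2 and 5 as the injured group 5 were higher and 10 lower, beside 7.4% and 7.67% of all genes. With libraries 1_2, 4_2 and 5_2 as that group 6 were higher and 1 lower, beside 2.62% and 1.23% of all genes.

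**Figure D4:**
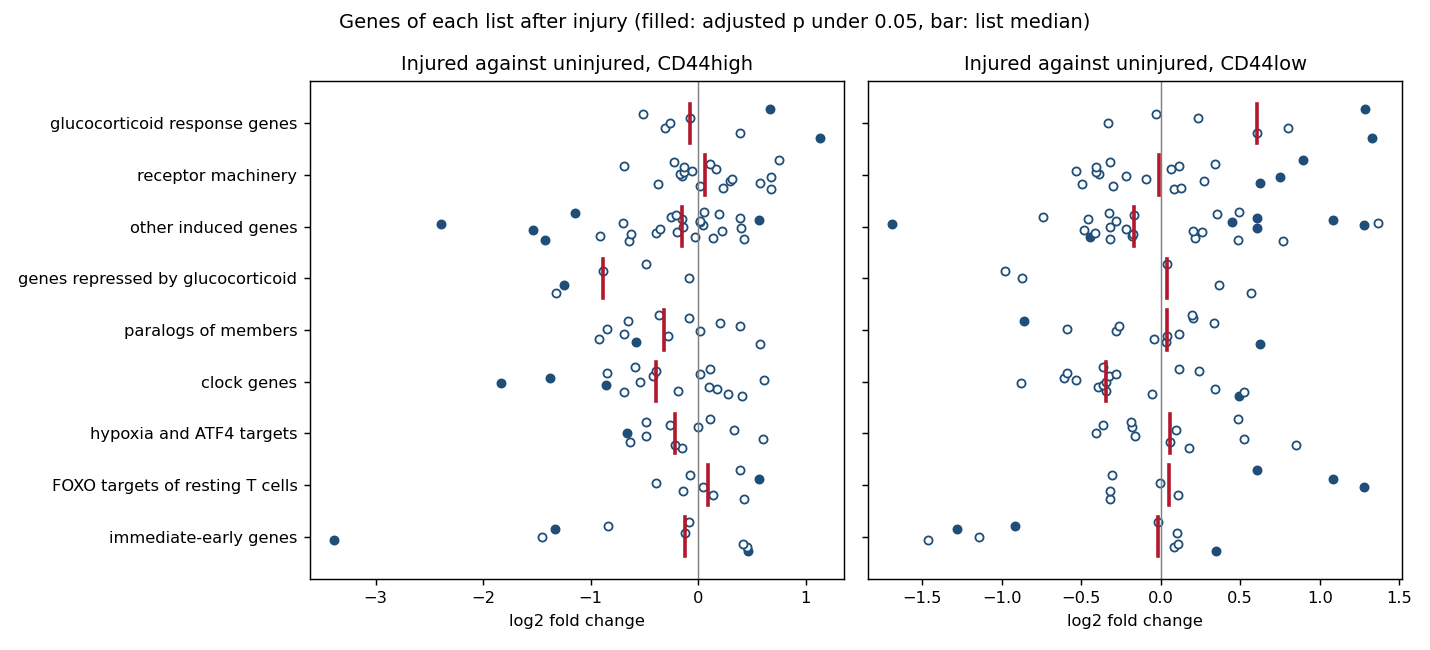
Log2 fold change after injury (x axis) of each tested gene of the glucocorticoid response genes and of 8 related lists (y axis), in CD44high (left) and CD44low Tregs (right), with filled symbols where the adjusted p was under 0.05 and a bar at the median of each list. The median of the glucocorticoid response genes is at -0.07 on the left and 0.60 on the right, and the lowest gene on the left is *Fos* at -3.38.

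Genes that the hormone represses were mostly cytokine genes too low to test in Tregs, with 5 tested of 16 listed. Of these 0 were higher and 1 lower in CD44high Tregs (*Ccl5*, a chemokine, -1.25, adjusted p = 0.00623; median -0.88), and 0 passed in CD44low Tregs (median 0.04), a count of 0 by edgeR that was also 0 by DESeq2 and with each set of injured libraries, with 2 at an unadjusted p under 0.05 by edgeR. Among close relatives of the 8 genes, 0 of 12 were higher and 1 lower in CD44high Tregs (*Klf10*, -0.58, adjusted p = 0.0289), and 1 was higher (*Fkbp4*) and 1 lower (*Tsc22d2*, -0.86, adjusted p = 0.00823) in CD44low Tregs. Their medians were -0.32 and 0.04. The call of *Klf10* was lost without any of uninjured CD44high library 2, 3 or 4 or injured library 3, 4 or 5, at an adjusted p of up to 0.109, and that of *Tsc22d2* with libraries 1_2, 4_2 and 5_2 alone (adjusted p = 0.119).

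Clock genes were set beside *Per1* because hormone and clock both act on it. In CD44high Tregs 0 of 17 were higher and 3 lower after injury (median -0.39): *Nr1d1*, the repressor REV-ERB alpha (-1.38, adjusted p = 0.00201), *Hlf* (-1.84, adjusted p = 0.00267) and *Dbp* (-0.86, adjusted p = 0.00338), output factors of the clock. In CD44low Tregs 1 was higher, *Arntl*, the clock activator BMAL1 (0.49, adjusted p = 0.0230), and 0 lower (median -0.34), and by DESeq2 2 were higher and 0 lower. With libraries 1, 2 and 5 alone 1 was higher and 2 lower, beside 7.4% and 7.67% of all genes. With libraries 1_2, 4_2 and 5_2 alone 0 passed (3 at an unadjusted p under 0.05), beside 2.62% and 1.23%. *Arntl* did not pass with the latter (0.33, adjusted p = 0.202) nor with the compared groups alone (adjusted p = 0.0805). With all libraries 1.06% of all genes were higher and 1.33% lower in CD44high Tregs. In CD44low Tregs the shares were 4.24% and 3.36%, and by DESeq2 7.86% and 4.47%. The time of day of each harvest is not in the labels, so time of day and injury cannot be told apart.

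Other inputs to the same genes were read from further lists, which were also chosen with earlier results of these data known. With libraries 1, 2 and 5 alone 7.4% of all genes were higher and 7.67% lower in CD44low Tregs. With libraries 1_2, 4_2 and 5_2 alone these shares were 2.62% and 1.23%. Hypoxia and ATF4 targets, which share their inducers with *Ddit4*, had 0 of 11 higher and 1 lower in CD44high Tregs (*Ndrg1*, -0.66, adjusted p = 0.0329; median -0.22) and 0 of 11 called in CD44low Tregs (median 0.06; 3 at an unadjusted p under 0.05, and 1 higher by DESeq2, beside 7.86% of all genes higher and 4.47% lower by DESeq2), while 1 was higher and 1 lower there with libraries 1, 2 and 5 alone. Also in CD44low Tregs, 0 were higher and 1 lower with libraries 1_2, 4_2 and 5_2 alone. The call of *Ndrg1* in CD44high Tregs was lost when any 1 of the 8 CD44high libraries was left out, at an adjusted p of up to 0.101. In CD44low Tregs genes of this list moved both ways. *Ddit3*, named after its value was seen, lay between 10.3 and 15.4 CPM without injury. It was at 18.2 CPM or more in injured libraries 1, 2 and 5 and 16.4 CPM or more in 1_2, 4_2 and 5_2. Mean *Trib3* was 6.67 CPM without and 9.38 CPM with injury, with overlap. The means of *Asns* (1.58 CPM without and 2.84 CPM with injury), *P4ha1*, *Ankrd37* and *Bnip3* were also higher with injury, with overlap. The means of *Slc2a1*, *Pdk1*, *Egln3*, *Ndrg1* and *Sesn2* were lower with injury, likewise with overlap. The part of this list in *Ddit4* was not tested. FOXO targets of resting T cells had 1 of 8 higher in CD44high Tregs (*Pik3ip1*, 0.57, adjusted p = 0.0123) and 3 of 8 higher in CD44low Tregs (*Pik3ip1*, *Il7r* and *Sesn1*), with 0 lower in both. In CD44low Tregs 1 was lower by DESeq2. With libraries 1, 2 and 5 alone 3 were higher and 2 lower there, and with libraries 1_2, 4_2 and 5_2 alone 2 were higher and 1 lower, where *Sesn1* did not pass (0.38, adjusted p = 0.0909). Their medians were 0.09 and 0.05.

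Immediate-early genes had 1 of 9 higher and 2 lower in each subset. In CD44low Tregs 2 were higher and 4 lower with libraries 1, 2 and 5 alone, and 1 was higher and 1 lower with libraries 1_2, 4_2 and 5_2 alone. The shares of all genes in these fits are those given above for the other lists. *Fos* (-3.38, adjusted p = 0.00458) and *Jun* (-1.33, adjusted p = 0.0150) fell in CD44high Tregs, and *Jun* (-1.28, adjusted p = 0.00355) and *Junb* (-0.92, adjusted p = 0.0176), subunits of AP-1, fell in CD44low Tregs. *Dusp2*, a phosphatase of activated T cells, was higher in both (0.47, adjusted p = 0.0193, and 0.35, adjusted p = 0.0251). In CD44high Tregs the call of *Jun* was lost without uninjured or injured library 5 (adjusted p up to 0.0683) and that of *Dusp2* without uninjured or injured library 2 or 5 (up to 0.0750). In CD44low Tregs *Junb* did not pass with libraries 1_2, 4_2 and 5_2 alone (-0.38, adjusted p = 0.119) nor without uninjured library 2 (adjusted p = 0.0566), under the replicate block on number (0.0558) or with the compared groups alone (0.0513). *Dusp2* did not pass without uninjured library 1 (adjusted p = 0.0564) or with the compared groups alone (0.0694). The list medians were -0.12 and -0.02.

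Across subsets the lists divided as follows, beside 24.7% of all genes higher and 21.3% lower without injury and 20.1% and 17.2% with injury. FOXO targets had 6 of 8 lower and 2 higher in CD44high Tregs without injury and 6 lower and 0 higher with injury, clock genes 9 of 17 higher and 2 lower both without and with injury, and receptor machinery 1 of 18 higher and 6 lower without and 2 higher and 6 lower with injury. Further induced genes had 11 of 27 higher and 11 lower without and 6 higher and 9 lower with injury. Repressed genes had 4 of 5 higher without and 3 with injury and 0 lower in both. Relatives of the 8 genes had 5 of 12 higher and 4 lower, then 2 and 2, hypoxia and ATF4 targets 5 of 11 higher and 3 lower, then 4 and 4, and immediate-early genes 0 of 9 higher and 2 lower, then 1 and 3.

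The genes whose pattern was most like each of the 7 were sought by the smallest root mean square (RMS) difference of centred log2 CPM over the 19 libraries, among 11463 other genes. This is a description, since the libraries share groups and depth. *Tsc22d3* was nearest to *Pik3ip1* (0.35) and *Ifngr1* (0.38), the interferon gamma receptor chain, and *Ddit4* was the fourth (0.41). *Ddit4* was nearest to *Cd69* (0.35), an early activation and tissue retention marker, and to *Tsc22d3* (0.41). *Cd69* was itself higher after injury by 0.81 in CD44high (adjusted p = 0.00157) and 1.01 in CD44low Tregs (adjusted p = 2.69e-05), and *Ifngr1* by 0.39 (adjusted p = 0.0487) and 0.76 (adjusted p = 2.69e-05). The CD44high call of *Ifngr1* was lost in 8 of 14 alternatives, at an adjusted p of up to 0.144, and without any of uninjured libraries 2, 4 and 5 or injured libraries 2, 4 and 5.

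The other 5 genes were each near to genes outside the set. *Sgk1* was nearest to *Mcm3* (0.21) and *Rrm1* (0.24), both genes of DNA replication, *Klf9* to *Bbc3* (0.33), the death gene PUMA, and *Pstk* (0.34), and *Fkbp5* to *0610039K10Rik* (0.29) and *Mapk6* (0.32). *Per1* was nearest to *Epn1* (0.32) and *Zfpm1* (0.33), and *Nr3c1* to *Heatr6* (0.12) and *Galnt6* (0.14). *Bbc3* had a log2 fold change after injury of -0.23 (adjusted p = 0.662) in CD44high and 1.08 (adjusted p = 0.00144) in CD44low Tregs. No pair within the set other than *Tsc22d3* and *Ddit4* was among the 2 nearest genes of either member.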

How the data were processed

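Bulk RNA-seq of sorted Tregs was taken from the table of raw counts per gene that the authors deposited, 1 column per library and without normalization. Per the submitters' processing notes, STAR 2.5 and bcl2fastq 2.18 were used, with mm9 and mm10 named without a role, and the sources used here do not give the annotation. Identifiers were matched to symbols of GENCODE vM21 (24463 rows) or RefSeq (364), and 155 were kept as listed. There were 26 rows with names that read as dates, and 4 rows shared an identifier.

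Counts were analysed in R 4.3.3 with edgeR 4.0.16: filterByExpr (minimum count 10), TMM scaling, 1 mean for each of 4 groups over all 19 libraries, quasi-likelihood tests (two-sided) and Benjamini-Hochberg adjustment over 11464 genes. A gene was called at an adjusted p under 0.05. SE is the size of the log2 fold change over the root of F, and intervals are at 95%. CPM used TMM-scaled totals, log2 CPM a prior count of 2, and RPKM the merged exon length of GENCODE vM21. The code was tested on simulated data. Total counts per library set the precision, and floors of 3 counts cover counting error only, since reads carry no molecular identifiers. Alternatives were DESeq2 1.42.0, other scaling factors, no filter, the compared groups alone, each set of injured CD44low libraries left out, numbers 1 and 5 summed with 1_2 and 5_2, a replicate block, a 2-fold limit and each library left out in turn. Plots were made with matplotlib 3.10.9 (Python 3.11.15).

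The 8 genes, the related lists and the markers were chosen with earlier results of these data known. Genes named were the 8, the 2 nearest in pattern of each, and from each list at most the 4 of smallest p called in an injury comparison, with exceptions stated. From the lists and markers 1 gene was left out and is not reported here. Tests were not run over lists, and single-cell data were not used here.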

Additional observations from a re-analysis of the deposited data

Results flagged for a closer look

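Among the values reported for the 8 genes, the named list genes and the genes nearest in pattern, 3 had an effect of injury that differed between the subsets by the interaction test of edgeR's quasi-likelihood fit. None of the 7 glucocorticoid response genes tested was among them, while 22 of all 11464 genes passed as higher and 52 as lower. The log2 fold change after injury of *Il7r*, CD44high minus CD44low, was -1.23 (adjusted p = 0.00417), and the difference passed in all 28 alternatives. That of *Ccl5* was -1.62 (adjusted p = 0.0267), and it was lost without uninjured CD44high library 4 or 5, uninjured CD44low library 3 or injured CD44high library 4, at an adjusted p of up to 0.0750. That of *Bbc3*, which was named for its likeness to *Klf9* over these same libraries, was -1.32 (adjusted p = 0.0224). It was lost without uninjured CD44high library 3 or injured CD44high library 4 or 5 (adjusted p = 0.0591, 0.0614 and 0.0554) and under a replicate block on condition and number (0.188). *Rora*, a nuclear receptor among the clock genes that was named after its value was seen, had a difference of -0.64 (adjusted p = 0.0426). For the 7 genes tested, no library of any group stood outside by Dixon's test at 95%, which chance alone would flag in about 1 of 20 groups.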

How the results depend on the processing

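For the 7 genes tested, 625 of 686 alternative values over 35 results kept their direction and their side of the threshold, 15 (in 3 results) lost a call, 27 (in 10) gained one and 19 (in 7) changed sign. The same alternatives were applied to the named list genes and nearest genes after seeing the data, where 581 of 642 values over 36 results were unaffected, 61 (in 17) lost a call and 0 changed sign. Counts of genes called are small, so 1 gene moves them.

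In CD44high Tregs 2 of the 7 genes were called after injury and 1 under a replicate block, under a 2-fold limit and without single libraries (range 1 to 2), the lost gene being *Tsc22d3*. In CD44low Tregs 2 were called, 4 by DESeq2, 4 with libraries 1, 2 and 5 left out, and 2 to 4 without single libraries, where 4 were called without injured library 1 or 5_2. Between subsets without injury 3 were called and 6 with the compared groups alone, beside 5280 of 11464 and 5487 of 10928 of all genes. With injury 5 were called and 3 at a 2-fold limit, beside 4283 and 1666 of 11464. The interaction was called for 0 genes and for 1 with either set of injured CD44low libraries left out. The cause of these changes was not tested, apart from the 2-fold limit, which is stricter by construction.

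Signs changed for values near 0 or carried by the split of the injured CD44low libraries. *Per1* after injury in CD44low Tregs was -0.86 without libraries 1_2, 4_2 and 5_2 and -0.133 to 0.456 without single libraries, and in CD44high Tregs -0.346 to 0.0823. *Sgk1* after injury in CD44low Tregs was 0.00550 with no filter, 0.0332 without libraries 1_2, 4_2 and 5_2 and -0.104 to 0.139 without single libraries. *Nr3c1* between subsets with injury was -0.139 to 0.0126 without single libraries. The interaction of *Nr3c1* was -0.0288 under a replicate block on condition and number and -0.0180 to 0.153 without single libraries. Without libraries 1_2, 4_2 and 5_2 the interaction was 0.330 for *Fkbp5* and 0.791 for *Per1*, and for *Per1* it was -0.584 to 0.0735 without single libraries.

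The labels do not say whether libraries of the same number came from the same mice. Correlations across genes of same-numbered libraries lay between -0.01 and 0.12 in sham and -0.05 and 0.17 in burn (4 pairs each). The burn pairs count CD44high library 5 with both 5 and 5_2. Of the pairs, 2 in sham and 1 in burn were the best match of their CD44high library. So few pairs cannot show whether the number pairs the libraries. The replicate block on number joins uninjured and injured libraries of the same number. These came from different mice, so for the injury comparisons this block is no pairing by mouse. Under the replicate block on number the adjusted p of *Tsc22d3* in CD44high Tregs was 0.0624, that of *Junb* in CD44low Tregs 0.0558 and that of *Ifngr1* in CD44high Tregs 0.0812, and 440 in place of 871 genes of the whole table were called after injury in CD44low Tregs. With the block on condition and number 35 in place of 74 genes passed the interaction. Over all genes, DESeq2 called 477 in place of 273 genes after injury in CD44high Tregs, 1453 in place of 871 in CD44low Tregs and 215 in place of 74 for the interaction. With the compared groups alone the injury counts were 601 and 463, and the subset counts were 5487 without and 3737 with injury. With libraries 1_2, 4_2 and 5_2 left out, 1748 genes were called in CD44low Tregs and 314 for the interaction, and with libraries 1, 2 and 5 left out 445 and 136. With library 1 summed with 1_2 and 5 with 5_2, the counts were 756 and 105. *Tsc22d3* and *Ddit4* kept their calls in CD44low Tregs under this and all other of the 20 alternatives. The 2-fold limit left 86, 143, 2306 and 1666 genes in the injury comparisons of CD44high and CD44low Tregs and the subset comparisons without injury (5280) and with injury (4283). Precision was lowest for *Per1*, with 34 to 193 counts per library, while *Zbtb16*, with 8 counts or fewer in each group, did not pass the filter on low counts, and no test of it is given.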
